A study of Mus musculus with 192 samples.

Results

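The heat shock and chaperone genes described here were 10 genes taken by symbol from a table of 54752 mouse genes: the transcription factor gene Hsf1, the Hsp70 genes Hspa1a, Hspa1b and Hspa8, the Hsp110 gene Hsph1, the Hsp40 gene Dnajb1, the Hsp90 gene Hsp90aa1, the small heat shock protein gene Hspb1, and the mitochondrial chaperonin genes Hspd1 and Hspe1. Their RNA was measured in 192 bulk RNA-seq libraries from male mice of the C57BL/6J background, labelled C57BL/6 and 12 weeks of age, that were either wild type (WT) or carried a germline knockout of Nrf2 in every cell (KO). Flight mice (FL) spent about a month on the International Space Station in individual cages, and ground control mice (GC) were kept in the same kind of cages in Japan in a later period of the same year, so flight, site and calendar period cannot be told apart. The 9 tissues were liver (Liv), kidney (Kid), the bones of the temple (TpB, temporal) and jaw (MdB, mandibular), 2 fats (eWAT, epididymal white, and iBAT, interscapular brown), spleen (Spl), thymus (Thy) and the cerebrum of the brain (Cbr), with 6 mice per group, or 3 in MdB and Kid. Flight mouse 04 was left out, which left 184 libraries and 5 FL_KO mice per tissue, 2 in MdB and 3 in Kid. The paper reports that this KO mouse bled severely in the intestine on the return flight and was an outlier in many measurements. The flight mice came back by capsule and were killed within days of splashdown, so every flight value also holds the return. Flight and ground mice alike were tested for behavior, bled from the tail and killed under isoflurane.

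Heat shock genes encode chaperones that hold, fold or disentangle other proteins. In an unstressed cell HSF1 is kept inactive by the chaperones themselves, and when damaged proteins engage those chaperones HSF1 is released, forms trimers and binds heat shock elements, repeats of the unit nGAAn in alternating orientation. Hsp70 works with Hsp40 proteins, which bring substrates and stimulate its ATPase, and with Hsp110 proteins, which exchange its nucleotide. HSF1 is also known to respond to the daily rhythm of body temperature. Nrf2, a transcription factor activated by oxidative and electrophilic stress, is known to share some target genes with HSF1.

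The sequence just before the start sites is shown because those repeats are what HSF1 binds, and because the members that varied most between mice had the same promoter stretch. RefSeq promoter windows on GRCm38.p6 were found for 7 of the 10 genes (10 windows, 3 genes with 2 each), and 250 bases before each start were searched on both strands for GAANNTTC and TTCNNGAA, the smallest pair of inverted heat shock units. These pairs occurred in 6 of the 7 genes, and in 12.8% of 32851 windows of all genes. In the stretches below, written 5′ to 3′ on the strand of the gene, capitals mark the heat shock unit pairs or the longer repeat.

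Hspa1a, chr17:34972187-34972306, minus strand: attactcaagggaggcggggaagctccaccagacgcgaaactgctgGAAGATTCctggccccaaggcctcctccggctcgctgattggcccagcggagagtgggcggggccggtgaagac
Hspa1b, chr17:34959269-34959388, minus strand: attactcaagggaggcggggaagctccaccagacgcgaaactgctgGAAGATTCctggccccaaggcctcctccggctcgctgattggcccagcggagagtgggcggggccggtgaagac
Hspb1, chr5:135887769-135887888, plus strand: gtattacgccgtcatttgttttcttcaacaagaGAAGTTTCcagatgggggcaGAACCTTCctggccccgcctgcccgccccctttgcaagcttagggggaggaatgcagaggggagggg
Hsph1, chr5:149636351-149636380, minus strand: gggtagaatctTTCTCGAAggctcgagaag
Hspe1, chr1:55088053-55088082, plus strand: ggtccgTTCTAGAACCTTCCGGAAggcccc

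Hspa1a and Hspa1b are single-exon neighbors on chromosome 17 (34969190-34972156 and 34956436-34959238, minus strand) whose starts lie 12918 bases apart. The 120 printed bases were identical in both, and 247 of 250 bases were identical over the searched stretch. The longer repeat GAANNTTCNNGAA was present in 0.47% of all windows and in the window of Hspe1, where it overlaps itself in the capitals above. Hspd1 and Hspe1 overlap at their starts on opposite strands of chromosome 1 (55077835-55088243 and 55088132-55091307), and the same repeat, read on the other strand, was found in the window of Hspd1. Dnajb1 (chr8:83608193-83612653, plus strand) had no such pair in its window. The core of the antioxidant response element, TGACNNNGC, was found in the windows of Hsph1 and Dnajb1 and in 10.2% of all windows, and CCAAT in 4 of the 7 genes and in 33.8% of all windows. A match describes the letters and is not a site in use.

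Expected counts per library totaled 13110740 to 16308175 outside the thymus and 8007523 to 10564704 in the thymus, whose libraries were made from rRNA-depleted total RNA rather than poly(A) RNA. The Nrf2 transcript Nfe2l2 was higher in every WT than in every KO library of each of the 9 tissues. In iBAT, the libraries of flight mice 06 (WT) and 11 (KO) had 9473 and 11440 TPM of 15 skeletal muscle markers, against at most 92.7 in any ground library. In Cbr, cerebral neuron markers were far above cerebellar ones. In most tissues the libraries of mice numbered 01 to 06 stood apart from those numbered 07 to 12 in Hspa1a and Hspa1b, and each comparison is given below over all mice and then within those numbers. TPM is a transcript level corrected for gene length and library size, which can be compared between genes. RSEM shared reads between near-identical copies for 7 members, so their counts are estimates. Only Hsf1, Hsph1 and Dnajb1 had whole counts in every library, and the split between Hspa1a and Hspa1b is uncertain.

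In GC_WT mice Hspa8, the Hsp70 that folds new proteins and uncoats clathrin vesicles in unstressed cells, had the highest mean level of the 10 genes in every tissue. It ran from 1193 ± 328 TPM (SD, n = 6) in Thy to 2765 ± 183 TPM (SD, n = 6) in Cbr, and each tissue overlapped its neighbor in that order. Hsp90aa1, the inducible cytosolic Hsp90 that matures kinases and steroid receptors, was at 849 ± 67.3 TPM (SD, n = 6) in Cbr, above every mouse of the other tissues, and then at 542 in TpB, 390 in Kid and 264 TPM in Liv. Its lowest mean was 178 ± 2.37 TPM (SD, n = 3) in MdB. Hsph1 was likewise apart in Cbr, at 330 ± 21.0 TPM (SD, n = 6) against 140 in TpB and 25.9 ± 10.8 TPM (SD, n = 6) in Thy, a 12.7-fold span. Dnajb1 ran over a 2.98-fold span, from 14.7 ± 3.92 (SD, n = 6) in Liv to 43.9 ± 4.68 TPM (SD, n = 6) in Cbr.

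**Figure D1:**
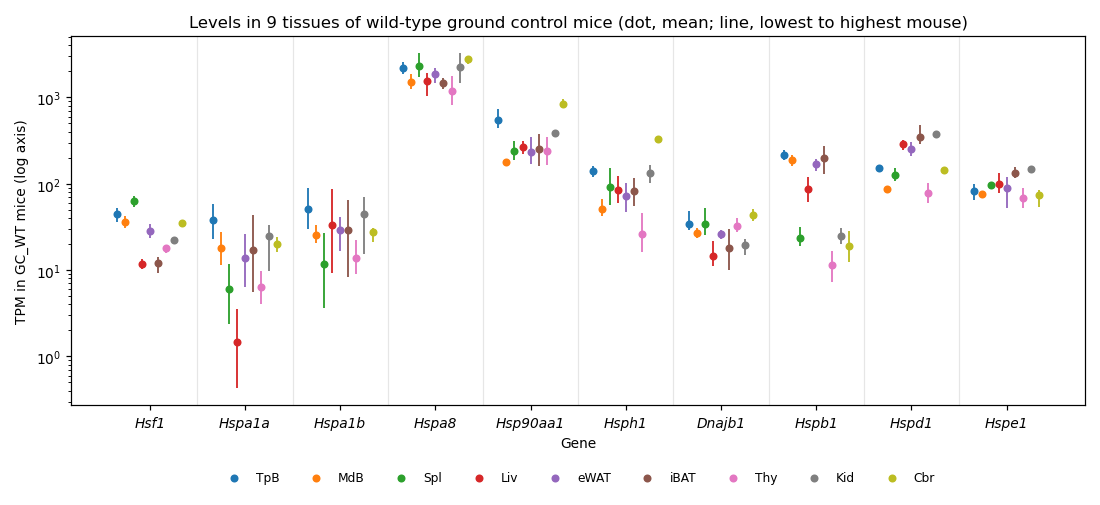
TPM (log axis) of each of the 10 genes in the 9 tissues of GC_WT mice, 6 mice per tissue or 3 in MdB and Kid. Dots are means and lines run from the lowest to the highest mouse. Hspa8 lies above the other 9 genes in every tissue. The lines of Hspa1a and Hspa1b are the longest in most tissues, while that of Hsph1 is the longest in Thy and that of Hspb1 in Cbr.

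The mitochondrial and small heat shock protein genes had other orders. Hspd1 (Hsp60) and Hspe1 (Hsp10) form the chamber and the lid of the chaperonin in the mitochondrial matrix. Hspd1 had 377 ± 17.9 TPM (SD, n = 3) in Kid, 349 in iBAT, 286 in Liv and 250 in eWAT, all 4 apart from TpB at 153 TPM and the rest, down to 77.8 ± 14.9 (SD, n = 6) in Thy. Hspe1 was highest in Kid (149 ± 13.8 TPM, SD, n = 3) and iBAT (134 ± 14.1 TPM, SD, n = 6) and lowest in Thy (67.6 TPM), so the ratio of Hspd1 to Hspe1 went from 1.15 in MdB and Thy to 2.97 in Liv. Hspb1 (Hsp27 in humans, Hsp25 in mice) binds unfolding proteins and actin. It formed a high set of TpB, iBAT, MdB and eWAT, from 167 to 217 TPM, then Liv at 87.5 ± 22.5 TPM (SD, n = 6), then Kid, Spl, Cbr and Thy between 11.5 and 25.1 TPM. Hsf1 itself was a low transcript of 11.8 ± 1.17 (SD, n = 6) in Liv to 63.8 ± 7.67 TPM (SD, n = 6) in Spl, the latter apart from all others. Thy values share the other library preparation: with TPM rescaled over genes that are neither mitochondrial, ribosomal nor small RNA, the highest tissue stayed for 6 of the 10 genes, while Dnajb1 moved to Thy (81.4 TPM) and Hspb1, Hspd1 and Hspe1 moved to iBAT. The genes kept held 30.6% to 45.6% of TPM in Thy, 61.7% to 68.6% in iBAT and 78.4% or more elsewhere. The lowest means of Thy given above are on TPM without this rescaling, and whether they hold with it was not counted.

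The stress-inducible Hspa1a and Hspa1b were low and uneven. Hspa1b averaged 51.4 ± 21.3 TPM (SD, n = 6) in TpB and 11.8 ± 8.20 TPM (SD, n = 6) in Spl, with overlap between all neighbors. Its SD came close to its mean in Liv (33.7 ± 30.0 TPM, SD, n = 6) and iBAT (29.3 ± 21.8 TPM, SD, n = 6). Hspa1a was highest in TpB at 38.1 ± 13.5 TPM (SD, n = 6) and lowest in Liv at 1.46 ± 1.18 TPM (SD, n = 6). In Liv it made up 4.45% ± 0.787 (SD, n = 6) of the summed TPM of both genes, against means of 30.8% to 43.0% in the other 8 tissues. The Liv share lay between 0.922% and 9.52% over all 23 liver libraries, and no library of another tissue fell under 23.4%. In bulk tissue, fewer cells of a type and less RNA per cell cannot be told apart.

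The comparison of FL_WT with GC_WT mice asked how wild-type tissues differed after the mission. Of 90 pairs of gene and tissue, 1 passed an adjusted p of 0.05 in edgeR's quasi-likelihood test, and it was lower in flight, while 6.55% of all gene and tissue pairs tested passed. That pair was Hspe1 in iBAT, where 19.2% of genes passed. Its GC_WT mice had 118, 133 and 157 TPM (lowest, median and highest) and its FL_WT mice 100, 130 and 168 TPM, so the groups overlapped on the TPM scale, and Hspe1 fell by 0.37 on the log2 scale of edgeR (SE 0.11, adjusted p = 0.0215). The scales differ in iBAT, where the median gene had a flight difference of 0.33 in log2 TPM and of 0.02 on the TMM scale that edgeR uses. Without GC_WT mouse 03 or FL_WT mouse 07 the call was lost (adjusted p up to 0.0519), while it was kept without mouse 06, whose fat held the muscle markers. On log2(TPM + 1) with limma, 5 pairs were higher and 0 lower, among 12.4% of all pairs: Hsf1 in Thy and iBAT, Hspb1 in eWAT, and Hspa8 and Hspd1 in iBAT. On that scale Hspe1 in iBAT was at -0.06 and was not called, so the direction of the calls depended on the scaling.

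The remaining wild-type values were small or spread widely. Hspa8 lay between -0.06 and 0.08 log2 in all 9 tissues and Hsf1 between -0.09 and 0.22. Hspb1 in Spl was 19.2, 22.6 and 31.5 TPM in GC_WT and 21.2, 40.3 and 60.4 TPM in FL_WT mice, a log2 difference of 0.78 (SE 0.27) that missed the threshold (adjusted p = 0.118). Of the 6 FL_WT spleens, mouse 10 was within the ground range, and leaving it out gave an adjusted p of 0.0436. Hspa1b spanned -0.53 in Kid to 0.53 in iBAT and Hspa1a -0.48 in eWAT to 0.64 in iBAT, and none of these 18 pairs had an unadjusted p under 0.05. Over the 10 genes, 36 of 90 log2 fold changes were positive with a median of -0.04, beside a median of 0.004 over all genes.

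**Figure D2:**
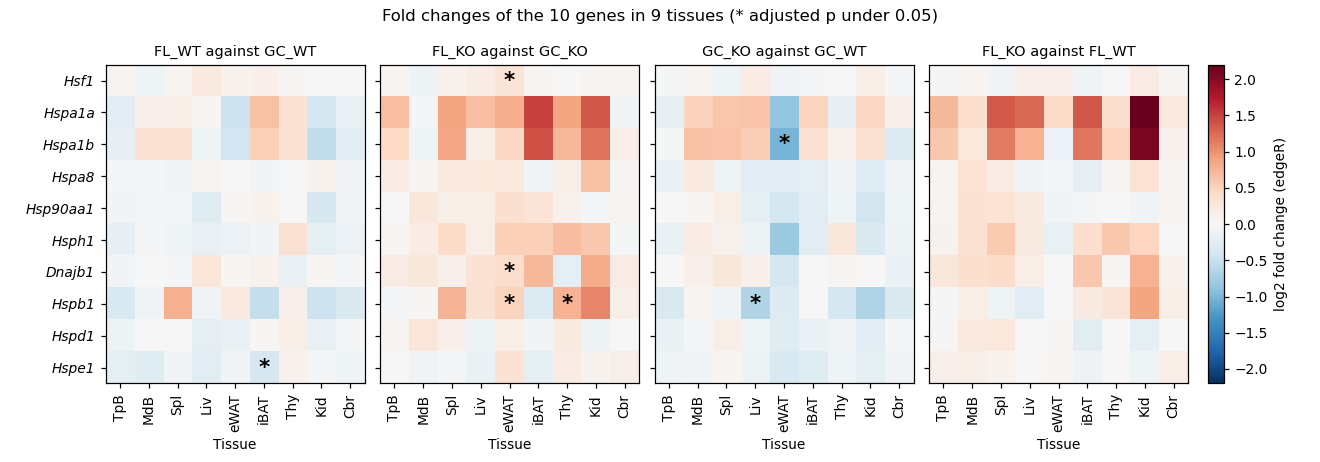
log2 fold changes from edgeR of the 10 genes (rows) in 9 tissues (columns) for the 4 comparisons of 2 groups, red for higher and blue for lower in the group named before "against", with an asterisk at an adjusted p under 0.05. There is 1 asterisk in FL_WT against GC_WT, 4 in FL_KO against GC_KO, 2 in GC_KO against GC_WT and 0 in FL_KO against FL_WT, and the deepest colors, in Hspa1a and Hspa1b, carry no asterisk except Hspa1b in eWAT.

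The comparison of FL_KO with GC_KO mice put the same question to mice without Nrf2. It gave 4 calls of 90, all higher, where 8.91% of all pairs passed, and 7.71% of genes passed in eWAT, 33.5% in iBAT and 38.2% in Thy. On log2(TPM + 1) with limma, 13 pairs were higher and 0 lower among 12.3% of all pairs. The median gene also had a flight difference in KO mice of 0.47 in log2 TPM in iBAT and 0.25 in Thy. On the TMM scale these were 0.04 and -0.008. Hspb1 in Thy had 6.44, 7.96 and 9.60 TPM (lowest, median and highest) in GC_KO mice and 17.8, 25.9, 16.2, 10.4 and 12.7 TPM in FL_KO mice 01, 02, 09, 11 and 12. Every flight mouse was above every ground mouse in TPM, a separation that also holds the shift of the median gene on that scale. On the scale of edgeR, Hspb1 rose by 0.77 (SE 0.21, adjusted p = 0.00487). It lay between 0.53 and 0.91 when any 1 mouse was left out, with the call kept in all 23 such fits. Within mice 01 to 06 the log2 value was 1.0 (adjusted p = 0.0076), which became 0.74 (adjusted p = 0.0528) with flight mouse 04, and within mice 07 to 12 it was 0.60 (adjusted p = 0.0735). The division at 06 was chosen after the values of these genes were seen. The values within it are therefore a description and no support for the call. The 6 thymic epithelial markers summed to 325 to 566 TPM in GC_KO and 586 to 689 TPM in FL_KO thymus, and 9 T cell markers to 2045 to 3132 and 1974 to 2247 TPM, and their part in this change was not tested.

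In eWAT, Hspb1, Dnajb1 and Hsf1 rose together in FL_KO mice. Hspb1 had 130, 147 and 171 TPM in GC_KO and 178, 272, 176, 242 and 186 TPM in the 5 FL_KO mice, with no overlap and a rise of 0.49 in log2 (SE 0.12, adjusted p = 0.0147). Hsf1, which encodes the factor that induces the others, had 25.1, 29.0 and 30.6 TPM in GC_KO and 30.8, 34.1, 35.1, 35.0 and 39.2 TPM in FL_KO mice, a rise of 0.28 (SE 0.08, adjusted p = 0.0382) that also had no overlap. Dnajb1 had 20, 22.3 and 23.3 TPM in GC_KO and 29.2, 41.6, 24.7, 21.9 and 27 TPM in FL_KO mice, a rise of 0.39 (SE 0.11, adjusted p = 0.0378) in which mouse 11 lay inside the ground range. Leaving out FL_KO mouse 02 took Hspb1 to an adjusted p of 0.0528, and the calls of Hsf1 and Dnajb1 were lost in 8 and 6 of the 23 fits that each left out 1 mouse. The 5 adipocyte markers summed to 27939 to 37978 TPM in GC_KO and 41765 to 44547 TPM in FL_KO fat, and their part was not tested.

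The inducible Hsp70 genes had the largest log2 values of this comparison without passing the test. In iBAT, Hspa1b was 85.2, 76.3 and 41.8 TPM in GC_KO mice 01, 02 and 04 and 2.16, 3.69 and 2.93 TPM in mice 09, 11 and 12, and it was 136, 430, 2.97, 13.2 and 4.0 TPM in FL_KO mice 01, 02, 09, 11 and 12. Both groups thus held a high and a low set, and the fold change of 1.40 (SE 1.16, adjusted p = 0.371) turned to -0.20 without FL_KO mouse 02. In Spl, Hspa1b was 65.1 and 76.2 TPM in FL_KO mice 01 and 02 and 4.13, 6.52 and 5.99 TPM in the other 3, while GC_KO mice had 16.4 to 58.8 TPM in the lower numbers and 3.54 to 5.40 TPM in the higher (log2 difference 0.85, SE 0.73, adjusted p = 0.683). In Kid, Hspa1b was 144 TPM in GC_KO mouse 02, 15.4 and 13.5 TPM in mice 11 and 12, and 130, 235 and 42.3 TPM in FL_KO mice 01, 02 and 11, so the groups of 3 differed in which numbers they held as well as in flight. Hspb1 in Kid followed the same mice, with 21.8 TPM in GC_KO mouse 02, 13.1 and 13.2 TPM in the other 2, and 34.3, 53.6 and 17.8 TPM in FL_KO mice 01, 02 and 11 (log2 difference 1.08, adjusted p = 0.236, or 1.42 and 0.0229 without FL_KO mouse 11).

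The 2 smallest adjusted p-values among the members that were not called were in Thy. Hsph1, whose product resets Hsp70 by nucleotide exchange, had 13.5, 23.6 and 46.9 TPM (lowest, median and highest) in GC_KO mice and 89.8, 97.8, 24.7, 34.1 and 31.8 TPM in FL_KO mice 01, 02, 09, 11 and 12. The FL_KO mice 01 and 02 lay above every ground mouse and the other 3 inside the ground range, and the log2 difference was 0.69 (adjusted p = 0.141). Hspa1a in Thy was at 0.87 (SE 0.38, adjusted p = 0.0772). Without GC_KO mouse 01, the highest KO ground mouse in each, Hsph1, Hspa1a and Hspa1b in Thy passed at adjusted p-values of 0.0402, 0.012 and 0.0359, while with flight mouse 04 included none of them passed (0.196, 0.105 and 0.284).

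Loss of Nrf2 on the ground, GC_KO against GC_WT, gave 2 calls of 90, both lower, among 1.65% of all pairs. Hspb1 in Liv was 62.2, 86.8 and 119 TPM in GC_WT and 46.4, 55.2 and 64.0 TPM in GC_KO mice, the highest KO mouse lying just inside the WT range, and it fell by 0.66 (SE 0.17, adjusted p = 0.0380). Hspa1b in eWAT was 16.7, 27.4 and 40.7 TPM in GC_WT and 12.6, 15.5 and 17.8 TPM in GC_KO mice, and it fell by 1.02 (SE 0.27, adjusted p = 0.0411) with 1 WT mouse within the KO range. These calls were lost in 8 and 11 of the 23 fits without 1 mouse, and limma on log2(TPM + 1) gave 0 calls among 1.48% of all pairs. In Liv 2.64% and in eWAT 2.74% of genes passed. With the counts of Hspa1a and Hspa1b added before the fit, only Hspb1 in Liv was called, among 1.64% of all pairs. In eWAT, Hsph1 was 47.6, 73.4 and 103 TPM in GC_WT and 23.0, 44.8 and 64.6 TPM in GC_KO mice, a log2 difference of -0.82 (SE 0.23, adjusted p = 0.060). The adipocyte markers summed to 35032 to 44267 TPM in GC_WT and 27939 to 37978 TPM in GC_KO fat, and their part was not tested.

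In flight, FL_KO against FL_WT, 0 of 90 pairs passed, while 1.35% of all pairs did, and 8 of the 90 had an unadjusted p under 0.05. Hspa1a was positive in all 9 tissues, from 0.22 in Cbr to 2.2 in Kid, and Hspa1b in 8, up to 2.06 (adjusted p = 0.321) in Kid. In Kid, FL_KO held 2 mice numbered 01 to 06 and 1 numbered 07 to 12, and FL_WT held 1 and 2. Hspa1a there was 96.8 and 158 TPM in the lower and 18.3 TPM in the higher numbers of FL_KO. Of 70 member values in 7 other tissues, 64 were positive within mice 01 to 06 and 11 within mice 07 to 12. The test of whether the flight response differed between genotypes called 0 of 90 members and 0 of 140842 pairs of all genes with edgeR, and DESeq2 called 0 members and 0.098% of all pairs. Of the 90 interaction values 80 were positive with a median of 0.21, beside 0.002 for all genes, and 7 had an unadjusted p under 0.05. The 5 comparisons share groups, so these counts are not independent of each other. A difference between genotypes in the flight response of these genes was not detectable with this spread between mice.

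The spread followed the mouse number in the labels. Mice 01 to 06 (01, 02 and 04 KO, 03, 05 and 06 WT) stood above mice 07 to 12 (09, 11 and 12 KO, 07, 08 and 10 WT) in Hspa1a and Hspa1b in ground and flight groups alike. What the numbers stand for, such as an order of dissection, is not given in the sources used here. The division at 06 was chosen after the values were seen, so the levels and counts that follow are a description with no test. In TpB the ranges coincide with the library sets and cannot be told apart from them. In MdB and Kid the groups held unequal shares of each range, so the counts cover the other 7 tissues, 28 groups in all.

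**Figure D3:**
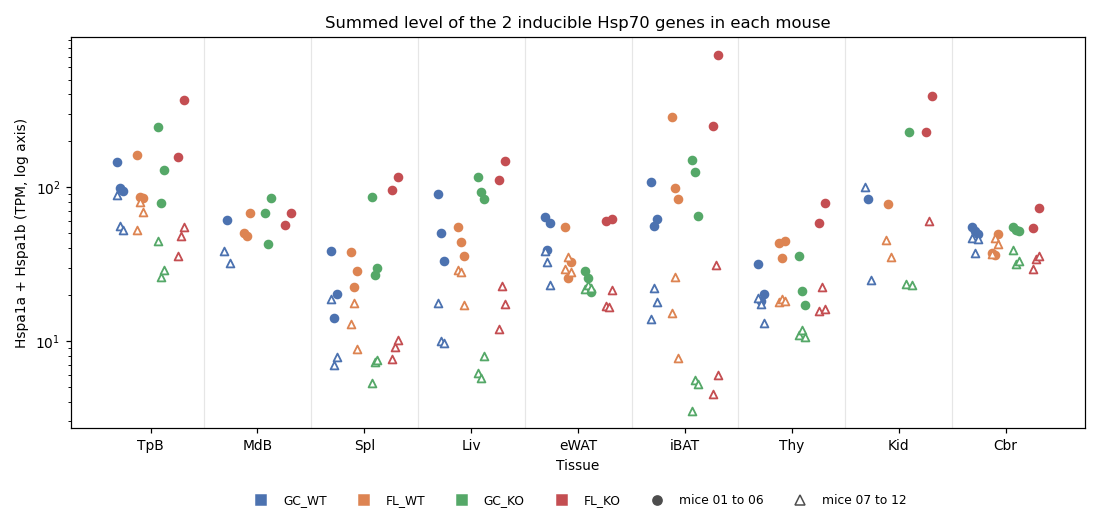
Summed TPM of Hspa1a and Hspa1b (log axis) in each of the 184 libraries, by tissue and, within a tissue, by group (colors). Filled circles are mice 01 to 06 and open triangles mice 07 to 12. Circles lie above triangles within most groups, by the widest margin in iBAT of KO mice, and overlap them in 5 of the 28 groups of the 7 tissues with both ranges in each group.

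In iBAT, the tissue that burns fat for heat, summed Hspa1a and Hspa1b were 251 and 722 TPM in the FL_KO mice of the lower numbers and 4.51, 5.97 and 31.3 TPM in those of the higher numbers. On the ground, GC_KO brown fat had 65.3 to 151 TPM against 3.53 to 5.54 TPM, GC_WT 56.2 to 108 against 13.9 to 22.1 TPM, and FL_WT 83.4 to 288 against 7.72 to 25.9 TPM. None of these 4 pairs of ranges overlapped. Liver had 83.8 to 117 against 5.79 to 8.01 TPM in GC_KO and 33.0 to 90.4 against 9.68 to 17.6 TPM in GC_WT mice, and FL_KO spleen 95.4 and 117 against 7.59 to 10.1 TPM. TpB had 156 and 369 against 35.8 to 54.8 TPM in FL_KO mice and Thy 58.4 and 79.0 against 15.6 to 22.3 TPM. The ranges overlapped in 5 of 28 groups, which were GC_WT in Spl and Thy, FL_WT in eWAT and Cbr, and GC_KO in eWAT, where 20.9 to 28.6 TPM stood against 21.7 to 23.2 TPM. FL_KO eWAT had 60.4 and 62.1 against 16.7 to 21.3 TPM. In Cbr the gap was narrower, with 49.7 to 55.2 against 37.3 to 46.5 TPM in GC_WT mice.

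Counted over the 28 groups, all mice of the lower numbers were above all of the higher numbers 23 times for Hspa1b, 19 for Hspa1a, 15 for Dnajb1 and 14 for Hsph1, where the same held for 9.11% of all pairs of gene and group. The reverse order was seen 0 times for the first 3 and 4 times for Hsph1. The other members were less uneven: 9 of 28 for Hspa8 (5 reversed), 7 for Hspd1 (1 reversed), 6 for Hsp90aa1 (4 reversed), 4 for Hspb1 (2 reversed), 3 for Hspe1 (3 reversed) and 2 for Hsf1 (7 reversed). As mean log2 difference the median over 7 tissues was 1.53 for Hspa1b (0.44 in Cbr to 3.54 in iBAT), 1.35 for Hspa1a, 0.63 for Hsph1, 0.49 for Dnajb1, 0.22 for Hspa8 and -0.05 for Hsf1. By that difference Hspa1b ranked 1 among all genes tested in Spl, 2 in iBAT, 5 in Thy, 6 in Liv and 15 in TpB, but 121 in Cbr and 150 in eWAT. The direction in all 4 groups at once was seen for Hspa1b in TpB, Liv and iBAT, Hspa1a in Liv and iBAT, and Dnajb1 in iBAT, beside 0.0935%, 0.871% and 0.847% of genes in TpB, Liv and iBAT.

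Other genes moved with the mouse number. Fkbp5, a glucocorticoid-induced co-chaperone of Hsp90, was higher in the lower numbers in 28 of 28 groups (median log2 difference 1.43), Zbtb16 in 24, Tsc22d3 in 22 and Per1, which answers to both hormone and clock, in 20. The clock output genes Dbp and Ciart were higher in 21 each and Nr1d2 in 24, while Arntl, whose transcript peaks opposite to these, was lower in 18 of 28 and Npas2 in 16. Other genes of the same 2 kinds were less ordered: Clock was lower in 10 groups and higher in 2, Nfil3 lower in 8 and higher in 7, and Sgk1 higher in 15 and lower in 1. The higher order held for 9.11% of all pairs of gene and group, and no such share was counted for the lower order. These genes were added after values were seen. Immediate early genes were less ordered: Fos was higher in 3 groups, Egr1 in 1, Jun in 11 and Atf3 in 12. The part of these genes, or of the time of day, in the heat shock values was not tested.

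**Figure D4:**
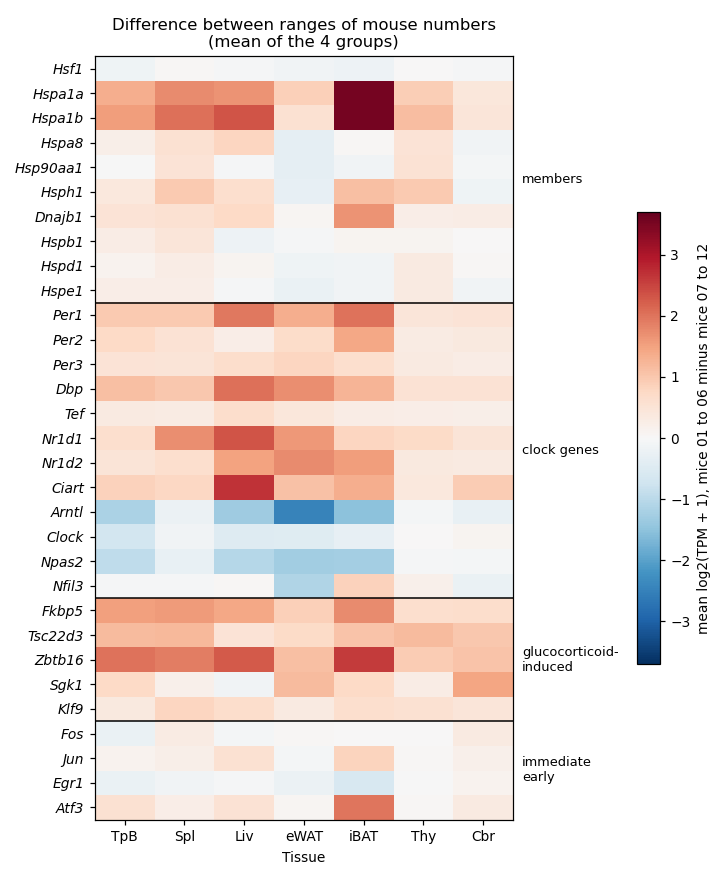
Mean difference in log2(TPM + 1) between mice 01 to 06 and mice 07 to 12, averaged over the 4 groups, in the 7 tissues with both ranges in each group. Rows are the 10 genes, then clock, glucocorticoid-induced and immediate early genes. Hspa1a, Hspa1b, Fkbp5, Zbtb16 and Dbp are positive in all 7 tissues, and Arntl is negative in all 7. Clock is positive in 2 and Nfil3 in 3 of the 7.

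Since each group of 7 tissues held both ranges, each comparison was repeated within them. The division was drawn from the values of these same genes, which lowers the spread left within a range. Calls within the ranges, or with the range as a covariate, are therefore a description and not support for a flight or genotype effect. Within mice 01 to 06, FL_KO exceeded GC_KO mice in 13 of 70 pairs, among 7.9% of all pairs, with only FL_KO mice 01 and 02 on the flight side. In eWAT these were Hspa1a (1.49, SE 0.29), Hsph1 (1.25), Hspa1b (1.13), Hsp90aa1 (0.72) and Dnajb1 (0.70). In iBAT they were Hspa1b (1.74, SE 0.60), Dnajb1 (1.09), Hsph1 (0.95) and Hsp90aa1 (0.81), and in Thy Hspa1a (1.17, SE 0.26), Hspb1 (1.0), Hspa1b (0.99) and Hsph1 (0.82). Wild-type mice of the same range had 0 of 70 calls, among 7.48% of all pairs, but the interaction within the range called 0 members and 0.112% of all pairs, so a difference between the genotypes was not shown. Flight mouse 04, a KO mouse of that range that the study set aside as an outlier in many measurements, lay below all other FL_KO mice in 29 of 80 pairs over the 8 tissues in which it was measured and above them in 0. No such share was counted over all genes. With mouse 04 the 13 calls became 5 among 9.3% of all pairs: Hspa1a, Hsph1, Hspa1b and Dnajb1 in eWAT and Hsph1 in iBAT.

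The genotype comparisons within mice 01 to 06 showed 9 of 70 pairs higher in FL_KO than in FL_WT mice, among 1.28% of all pairs. Of these, 5 were in Spl: Hspa1a (2.08, SE 0.42), Hsph1 (1.19), Hsp90aa1 (0.78), Hspe1 (0.57) and Hspd1 (0.55). The others were Hspa1b in Liv (1.45), Hsph1 in Thy (1.14) and iBAT (1.0), and Hspa1a in Cbr (0.79). All 9 rested on FL_KO mice 01 and 02, and with mouse 04 there were 0 calls among 1.32% of all pairs. On the ground, Hspa1b (-1.29, SE 0.20) and Hsph1 (-1.17, SE 0.27) were lower in GC_KO than in GC_WT eWAT, among 0.971% of all pairs.

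Mice 07 to 12 gave a different set. FL_WT against GC_WT had 0 of 70 calls (2.87% of all pairs), and FL_KO against GC_KO 3 (8.42% of all pairs): Hspa8 in Liv (0.89, SE 0.20) and Hsph1 in Thy (0.86, SE 0.24) were higher and Hspb1 in iBAT (-1.23, SE 0.29) was lower. Hsph1 in Thy was at 0.82 within mice 01 to 06 and at 0.86 within mice 07 to 12. The ranges were drawn from the values of these genes, so this is not a replication. GC_KO mice were below GC_WT mice for Hspb1 (-0.81) and Hspa8 (-0.92) in Liv, among 1.11% of all pairs, and 6 of the 70 log2 values were positive with a median of -0.30. In flight, Hspb1 was lower in FL_KO Liv (-0.69), among 1.44% of all pairs. With the range as a covariate in all tissues but MdB, the calls of the flight response in KO mice went from 4 to 7 of 80 (12% of all pairs) by the addition of Hspa1a (0.90), Hsph1 (0.78) and Hspa1b (0.77) in Thy, and those of KO on the ground from 2 to 3 (2.8% of all pairs) by Hsph1 in eWAT (-0.84).

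The same mouse tended to be extreme in many tissues. FL_KO mouse 02 had the highest summed Hspa1a and Hspa1b of its group in 9 of 9 tissues, GC_WT mouse 03 in 8 of 8, GC_KO mouse 01 in 7 of 8 and FL_WT mouse 03 in 5 of 8. Tissues of a mouse are not independent libraries of the condition, so these counts describe mice.

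Deviations of each library from the mean of its tissue and group, scaled within the tissue, were correlated between genes over 184 libraries. These points share mice, depth and the number ranges above, so the values are a description. Of the 45 pairs among the members 42 were positive, with a median Pearson's r of 0.36, and 14 exceeded 0.5. The highest were Hspa1a with Hspa1b (0.94), whose reads are shared, Hspa8 with Hsph1 (0.85) and Hspa1b with Dnajb1 (0.83). Hsp90aa1 went with Hspd1 at 0.70 and Hspd1 with its partner Hspe1 at 0.57, whereas Hsf1 had no r over 0.24 with any member and -0.06 with Hspa1a. Hsph1 was tied to Hspa1b at 0.95 in Spl but at 0.15 in eWAT and -0.21 in Cbr, while Dnajb1 stayed between 0.64 and 0.98 in all tissues.

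**Figure D5:**
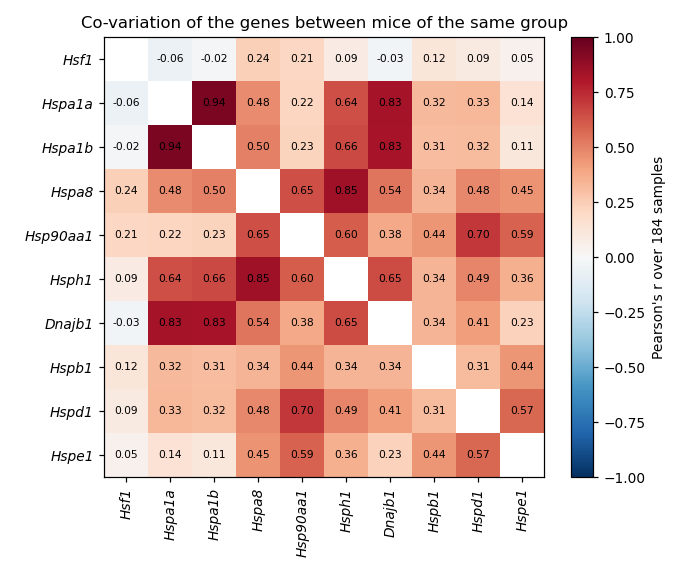
Pearson's r between the 10 genes over 184 libraries, from deviations of log2(TPM + 1) from the mean of the tissue and group, scaled within each tissue. Hspa1a, Hspa1b and Dnajb1 form a block at 0.83 to 0.94, Hspa8 and Hsph1 stand at 0.85, and the row of Hsf1 lies between -0.06 and 0.24.

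Among 5279 genes with a mean of at least 5 TPM in every tissue, the 5 most like Hspa1b were Fkbp5 (r = 0.82), Tsc22d3 (0.80), Ddit4 (0.78), Per1 (0.78) and Ccdc117 (0.77). Those most like Hspd1 were Tcp1 (0.66), Cacybp (0.63), Cct6a (0.63), Ahsa2 (0.62) and Cct3 (0.62), of which Tcp1, Cct6a and Cct3 encode subunits of the cytosolic chaperonin TRiC.

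The wider chaperone network was counted from lists that hold no member and that share some genes with each other. Of 189 pairs of endoplasmic reticulum chaperones and tissues, 18 were higher and 2 lower in FL_KO than GC_KO mice, and 8 and 2 in FL_WT against GC_WT mice, beside 8.91% and 6.55% of all pairs. Examples were Hsp90b1, the Hsp90 of that compartment, at 0.52 in iBAT and Hspa5, its Hsp70, at 0.40 in Thy, both in KO mice. Mitochondrial chaperones and proteases had 1 pair higher and 12 lower of 144 in KO mice, among them Hspa9, the Hsp70 that feeds substrates to Hspd1, at -0.36 in iBAT. Other HSF1 targets had 4 higher and 3 lower of 180, including Bag3 (0.57) and Serpinh1 (0.50) in Thy and Hspb8 (-1.04) in iBAT.

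The other families gave 1 to 7 calls in either direction, beside 8.91% of all pairs. Flight in KO mice gave 6 higher and 3 lower of 84 pairs of other Hsp70 and Hsp110 genes, 7 and 7 of 162 for Hsp40 genes, 5 and 7 of 197 for Hsp90 co-chaperones, 6 and 3 of 108 for Hsp70 co-chaperones, 5 and 4 of 126 for TRiC and prefoldin, 1 and 3 of 49 for small heat shock proteins, and 1 and 7 of 59 (13.6%) for heat shock factors and their regulators. By tissue, 25 of 115 network genes were higher and 17 lower in iBAT (36.5%) and 14 of 112 higher and 25 lower in Thy (34.8%), beside 33.5% and 38.2% of all genes. For KO on the ground, 2 of 116 were higher and 13 lower in eWAT (12.9%, beside 2.74% of all genes there), among them Hsp90ab1, the constitutive Hsp90, at -0.45. Bag2, a regulator of Hsp70, was lower in GC_KO than in GC_WT mice in 4 tissues, from -0.64 in eWAT to -1.28 in Liv. In FL_KO against FL_WT mice, 0 of 108 pairs of Hsp70 co-chaperones passed, Bag2 among them. No network gene passed the interaction test with edgeR.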

How the data were processed

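RNA from 9 tissues of 24 mice was sequenced by the authors with strand-specific poly(A) libraries, or rRNA-depleted libraries in the thymus. The authors mapped reads with STAR 2.6.1 to mm10 and quantified GENCODE vM20 genes with RSEM 1.3.1, and deposited expected counts, which share reads of near copies and are not normalized. The authors deposited TPM, scaled for gene length and to 1 total per library, beside them, and 192 FPKM columns that were not used here. The strand setting of the counting is not given in the sources used here.

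Expected counts were rounded and fitted per tissue with edgeR 4.0.16 in R 4.3.3 (filterByExpr, TMM factors, 4 groups in 1 quasi-likelihood fit, Benjamini-Hochberg over all genes tested in a tissue, called at an adjusted p under 0.05, two-sided). TPM served for levels. Gene coordinates came from GENCODE vM21, which held 99.9% of the gene IDs. Alternatives used DESeq2 1.42.0, limma 3.58.1 on log2(TPM + 1), other filters and factors, flight mouse 04, each mouse left out, and fits by mouse number. The fit was tested on simulated counts. Depth is in the report, and p-values measure the spread between mice. Named network genes came from the up to 3 called genes of smallest adjusted p per list, tissue and comparison, beside the 5 genes most like Hspa1b and Hspd1 in co-variation. Clock and glucocorticoid genes were added after values were seen. The members and lists were chosen with earlier results of these data known.

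GC and FL mice share numbers in the labels, although they are different animals. Among tissues with 5 or 6 pairs, the correlation of same-numbered mice exceeded 0.1 in every pair only in the liver of KO mice (5 of 5 pairs, r 0.22 to 0.37), and there the replicate block changed no call.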

Additional observations from a re-analysis of the deposited data

Results flagged for a closer look

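Of 280 groups of 4 to 6 mice tested for a mouse far from the others, 23 passed a limit set at about 1 in 20. That rate holds for independent, normally distributed values. These groups share mice and TPM was not transformed, so no excess over chance can be read. In 21 the far mouse was the highest, and 16 of those 21 were numbered 01 to 06. No explanation was weighed.

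The inducible genes gave the most. FL_WT mouse 03 was highest for Hspa1a in TpB (64.9 TPM) and iBAT (115.7 TPM) and for Hspa1b in TpB (97.9 TPM), eWAT (38.5 TPM) and iBAT (171.9 TPM), and GC_KO mouse 01 for Hspa1a (28.0 TPM), Hspa1b (58.8 TPM) and Dnajb1 (88.6 TPM) in Spl. GC_WT mouse 03 was highest for Hspa1b in Thy (22.2 TPM) and Dnajb1 in TpB (48.8 TPM), and FL_WT mouse 03 for Hsph1 in Spl (110.8 TPM). FL_KO mouse 02 stood far above its group in iBAT for Hsp90aa1 (579 TPM), Hsph1 (338 TPM) and Hspb1 (445 TPM) and in TpB for Hspb1 (357 TPM). FL_WT mouse 10 did so in iBAT for Hsp90aa1 (552 TPM) and Hspd1 (547 TPM), where GC_WT mouse 08 was highest for Hspd1 (485 TPM). The other high values were Hspb1 in FL_WT mouse 08 in TpB (333 TPM) and GC_WT mouse 06 in Spl (31.5 TPM) and Hspe1 in GC_WT mouse 08 in Liv (135 TPM). The low values were Hsf1 in FL_WT mouse 05 in eWAT (27.7 TPM) and Hspd1 in GC_KO mouse 11 in TpB (121 TPM).

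Flight mouse 04, which was left out of the main comparisons and measured in 8 tissues, was above every GC_KO mouse in 14 of 80 pairs of member and tissue, within the range of the other FL_KO mice in 51 and below them in 29. In MdB the other FL_KO mice were only 2. These places were not counted over all genes, so no trait of the members can be read from them.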

How the results depend on the processing

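The count of called members was recomputed under each alternative, and those by mouse number were chosen after seeing the data. Flight in WT (1 call) became 5 with limma at both pseudocounts, 3 with only the 2 groups in the fit and 0 within each range of mouse numbers. Flight in KO (4) became 13 with limma at both pseudocounts, 7 with the range of numbers as a covariate and 13 within mice 01 to 06. KO on the ground (2) became 4 with DESeq2, 0 with limma at both pseudocounts, 1 with flight mouse 04 included, 4 with only the 2 groups and 1 with Hspa1a and Hspa1b summed. KO in flight (0) became 9 within mice 01 to 06 and 1 within 07 to 12. Leaving out each mouse gave 0 to 2, 2 to 5, 0 to 4 and 0 to 1 calls in these comparisons. The interaction stayed at 0 calls under every alternative run. Hspa1b in iBAT for flight in KO (1.40) ran from -0.20, without FL_KO mouse 02, to 1.87. With TPM rescaled, 6 of 10 genes kept their highest tissue, and with log2 CPM 18 in place of 14 pairs exceeded an r of 0.5. With the mouse number as a replicate block, flight in WT had 2 calls and flight in KO 6, of which 3 were called without the block, and the interaction had 0. The share of all pairs called is not given for DESeq2 in KO on the ground, limma at the other pseudocount or the fits of only the 2 groups. It is also not given for the fits with flight mouse 04 in all tissues, without 1 mouse or with the replicate block. In those settings a change in the members cannot be told from a change over all genes. The cause of these changes was not tested. For the called pairs of gene and tissue and some pairs not called, each alternative gave 1 value per pair. Of these values 571 kept direction and side of the threshold, 192 of them in called pairs. Another 64, all in called pairs, lost the call, while 31 gained a call and 1 reversed.

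Groups held 2 to 6 mice, and 2 or 3 within a range of numbers, which limits the precision of each difference, and low counts limit it for Hspa1a in Liv. The block and the fits within ranges covered 7 tissues (not MdB and Kid), and the covariate could not be fitted in MdB. Levels used GC_WT mice alone, so flight mouse 04 has no bearing on them.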

Other observations

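Immediate early genes, which respond to handling and other acute stimuli within minutes, were tested in the same comparisons of flight with ground mice. In those comparisons no member was called in Spl or Liv. Fos was higher in flight in Spl (1.31 in WT and 1.05 in KO mice), eWAT (1.61 and 1.19) and iBAT (1.86 and 1.78), and in Thy of KO mice (0.76), by edgeR at an adjusted p under 0.05. Jun was higher in Liv of WT (1.04) and Thy of KO mice (0.50), and Egr1 in eWAT of WT mice (1.15). Over 13 such genes and 9 tissues, 12 of 114 pairs were higher and 1 lower in KO mice and 10 and 1 in WT mice, beside 8.91% and 6.55% of all pairs called in either direction. On the ground, Fos in Spl was also higher in GC_KO than in GC_WT mice (1.07, edgeR adjusted p = 0.011).

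Pih1d1, which belongs to a co-chaperone complex of Hsp90, was higher in GC_KO than in GC_WT mice in Spl (0.40), eWAT (0.61), iBAT (0.60) and Cbr (0.81), and in FL_KO than in FL_WT mice in the same 4 tissues (0.35, 0.51, 0.49 and 0.72). These 2 comparisons share no mice. Dnaja4, an Hsp40 gene, was higher in KO Liv on the ground (0.68) and in flight (0.90), and Dnajc12 was lower in KO Kid (-0.91 and -0.98). Hspb7, a small heat shock protein of muscle, was higher in flight in iBAT by 5.84 (WT) and 6.10 (KO) on the log2 scale, in the tissue where flight mice 06 and 11 had high skeletal muscle markers.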
